A study of Mus musculus with 6 samples.

Results

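The subject is Cd5l and 7 macrophage scavenger receptor genes, Msr1, Marco, Cd163, Stab1, Scarb1, Olr1 and Cd68, in mouse bone marrow-derived macrophages with and without the transcription factor FoxO1. The 8 genes were found by gene name among 27361 names on a 1-colour Agilent whole mouse genome array, and each was represented by its brightest probe. All 8 passed the filter for testing, which required a signal well above background on 2 or more arrays and left 19038 names. RNA was measured on 6 arrays, 1 for each genotype and polarization state, so no level below has a replicate. The KO cells carried floxed FoxO1 alleles (FoxO1 Fl/Fl) together with LysMcre, which expresses Cre recombinase under control of the lysozyme M locus in myeloid cells, and the WT cells carried FoxO1 Fl/Fl without Cre, both on C57BL/6. Only KO cells carried Cre, so loss of FoxO1 and presence of Cre cannot be told apart. All cells were grown from marrow for 7 days with 10% L929-conditioned medium. For the last 24 hours LPS (100 ng/ml) and IFN-γ (20 ng/ml) were added to M1 cells, IL-4 and IL-13 (10 ng/ml of each) to M2 cells, and nothing to M0 cells. The set was chosen by the measured KO minus WT difference of Cd5l on these arrays, together with 7 named scavenger receptor genes, so all KO against WT values of the 8 genes are given as a description without a test.

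Scavenger receptors are surface proteins that bind modified lipoproteins, bacterial surfaces, dying cells and other polyanionic ligands and carry them into the cell. Cd5l, also called AIM, is a secreted protein of tissue macrophages built of scavenger receptor cysteine-rich domains, circulates bound to IgM and is known as a target of the oxysterol receptor LXR. In macrophages fed with modified lipoprotein these receptors bring in the cholesterol that is later stored or exported, and several of them also serve as surface markers of activation states.

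The measurement rests on the oligonucleotides printed on the array, so the start of the probe used for each gene is shown. Each probe is 60 bases long, its first 30 bases are printed from the 5′ end, and the positions are those of the whole probe on mm9 as the scanner files give them.
Cd5l, chr3:87174823-87174882, plus strand: atggtagagacttgaggagttgggacctcg
Msr1, chr8:40691292-40693453, minus strand: gtgtaggcggatcaagatcagtataactcc
Marco, chr1:122371115-122371134, minus strand: gagcccgagaggtcatcagtgtgtccccag
Cd163, chr6:124280484-124280543, plus strand: cagtgcatcatgtccaaatatgacatgtcc
Stab1, chr14:31952288-31952347, minus strand: ctcaaggtcaaatgatgagctggaatgaag
Scarb1, chr5:125757658-125757717, minus strand: tgctatgtcactgaattaaccactgtacgt
Olr1, chr6:129435316-129435375, minus strand: tacaatttctgtgatgaaataactgagcat
Cd68, chr11:69478314-69478373, minus strand: ttgggccaaagcttctgctgtggaaatgca
The Msr1 probe spans 2162 genomic bases and so crosses an intron, and the files place only 20 bases of the Marco probe. Msr1 had 3 probes and Stab1 had 2, and the other 6 genes had 1 probe each.

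Promoter windows from 250 bases before to 50 bases after the gene start were found for 6 of the 8 genes among RefSeq promoters on GRCm38.p6 (Cd5l, Marco, Cd163, Stab1, Olr1 and Cd68). The windows of Cd5l, which differed between genotypes, Marco, which was higher in M1, and Olr1, which was higher in M2, are printed on the strand of the gene. Capitals mark a match to TTCNNNNGAA, the spacing known for STAT6 sites, in Cd5l and to TGAGTCA, the AP-1 site, in Olr1.
Cd5l promoter, chr3:87357631-87357930, plus strand: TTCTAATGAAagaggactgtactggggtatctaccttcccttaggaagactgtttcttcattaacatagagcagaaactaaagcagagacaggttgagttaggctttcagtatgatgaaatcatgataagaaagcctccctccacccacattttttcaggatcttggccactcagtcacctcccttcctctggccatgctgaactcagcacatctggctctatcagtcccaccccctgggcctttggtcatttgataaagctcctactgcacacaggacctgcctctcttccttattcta
Marco promoter, chr1:120504975-120505274, minus strand: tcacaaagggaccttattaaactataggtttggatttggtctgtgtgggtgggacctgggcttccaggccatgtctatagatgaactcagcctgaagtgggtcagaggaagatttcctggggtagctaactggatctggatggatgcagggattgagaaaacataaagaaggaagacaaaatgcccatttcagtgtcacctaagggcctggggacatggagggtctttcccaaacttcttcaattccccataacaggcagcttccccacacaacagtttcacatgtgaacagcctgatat
Olr1 promoter, chr6:129507116-129507415, minus strand: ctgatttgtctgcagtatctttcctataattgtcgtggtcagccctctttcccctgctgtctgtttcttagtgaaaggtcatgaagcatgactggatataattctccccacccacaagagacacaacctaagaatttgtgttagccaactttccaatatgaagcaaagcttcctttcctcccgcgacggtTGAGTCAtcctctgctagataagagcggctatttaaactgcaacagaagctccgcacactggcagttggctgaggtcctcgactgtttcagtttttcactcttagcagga
Both strands were searched. The forkhead motif TGTTTAC, the site family bound by FoxO1, had 0 matches in the 6 windows and occurs in 3.65% of 32851 promoter windows. TTCNNNNGAA matched 1 time in Cd5l, at the window's first base, and occurs in 6.95% of all windows, and the gamma-activated spacing TTCNNNGAA had 0 matches and occurs in 8.30%. TGAGTCA matched 1 time in Olr1, 60 bases before the start, and 2 times in Cd68, and occurs in 5.202%. GAGGAA, the core of PU.1 sites, matched in Cd5l, Marco, Stab1, Olr1 and Cd68 and occurs in 28.3%. AGGTCA, the repeated unit of LXR elements, matched 1 time in Olr1 and occurs in 16.3%. No matches shared a base, and a match describes letters only.

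Between 62.8% and 67.7% of 41137 probes were well above background per array, and the arrays' 75th percentiles ranged from 532 to 627 signal units. Levels are given as log2 of the processed signal minus log2 of that percentile, so a level of 0 is the array's 75th percentile, and levels of different genes are not compared because probes differ in brightness. The 11 macrophage markers of a list that includes Csf1r, Emr1 and Lyz2 were all well above background on all 6 arrays. The KO minus WT difference of Foxo1 was -2.78 in M1, -2.65 in M2 and -2.92 in M0 on the log2 scale, the direction that the labels give. Slide 1 held WT M0 and WT M1 and slide 2 the other 4 arrays, so KO and WT shared a slide only in M2. Every WT difference between M2 and M0 below therefore crosses slides. Transcripts typical of liver stood out on WT M0, where all 23 hepatocyte markers on the array were well above background. Their median level was -3.97 on KO M1, -0.26 on WT M0 and between -7.24 and -5.95 on the other 4 arrays. In such RNA extracts fewer cells of a type and less RNA per cell cannot be told apart.

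Cd5l was higher in KO than in WT macrophages in each of the 3 states, and lower after either stimulus than in unstimulated cells. Its processed signal was 6172 units in KO M1, 9410 in KO M2 and 21417 in KO M0, against 1118 in WT M1, 989 in WT M2 and 4229 in WT M0. On the scaled log2 axis the levels were 3.40, 3.91 and 5.16 in KO M1, M2 and M0, against 0.93, 0.84 and 2.99 in WT M1, M2 and M0. The lowest KO array, M1, lay 0.41 above the highest WT array, M0, so the genotypes did not overlap although unstimulated WT cells came close to LPS-treated KO cells. All KO arrays lay above all WT arrays for 774 of 19038 genes (4.07%), and Cd5l was the 1 gene of the 8 among them. The set was chosen by the KO minus WT difference of Cd5l, so the place of Cd5l among them adds no separate support.

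**Figure D1:**
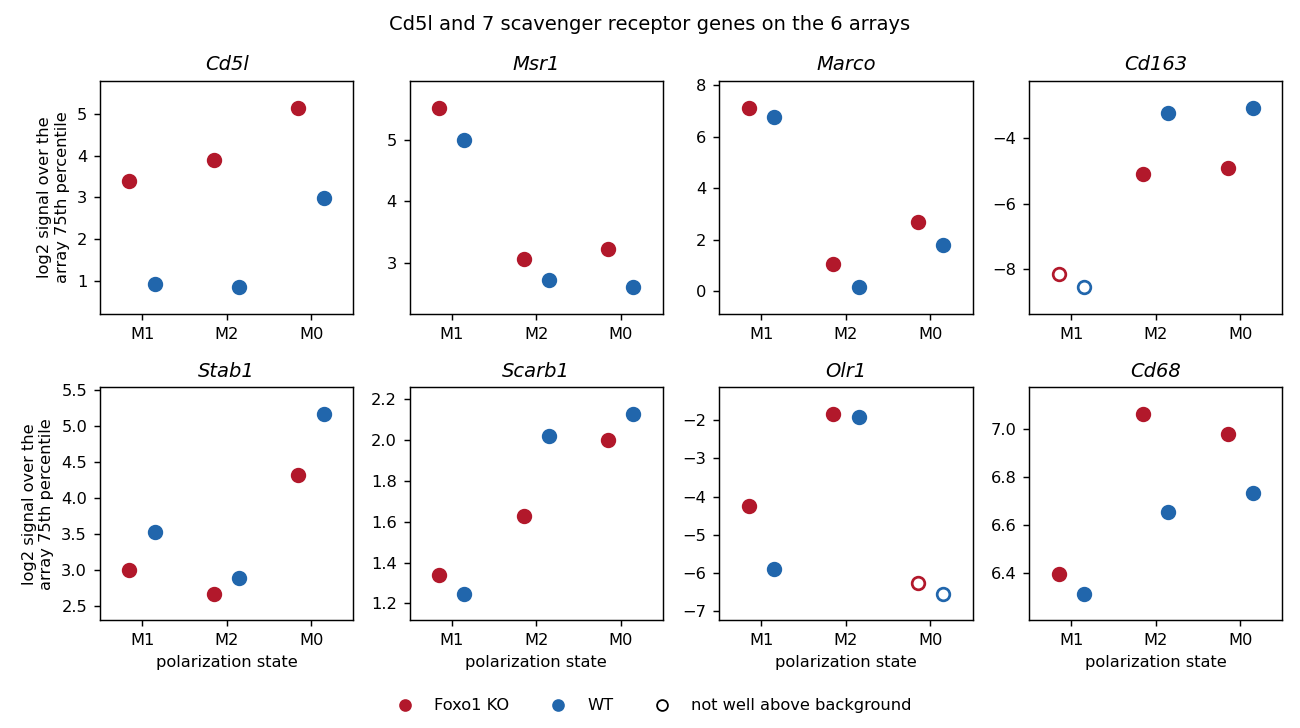
Level of each of the 8 genes on each array, as log2 processed signal over the array's 75th percentile (vertical axis, a separate range for each gene), by polarization state (horizontal axis). Red points are KO arrays, blue points WT arrays, 1 array each, and open points are arrays not well above background; the 3 Cd5l points of KO all sit above those of WT, and the Marco and Msr1 points of M1 above those of M2 and M0.

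The KO minus WT difference of Cd5l was 2.48 in M1, 3.06 in M2 and 2.17 in M0, or 5.57-fold, 8.37-fold and 4.49-fold, with a mean of 2.57 ± 0.22 (SE of the fit over 3 states). The M2 value is the one from arrays that shared a slide. By mean difference Cd5l ranked 9th from the top of 19038 genes, and at least 2-fold higher values in KO in all 3 states were found for 80 genes (0.42%). Because Cd5l was picked by this difference, neither the rank nor the share is a test of it. Arranged by level, the arrays ran KO M0, KO M2, KO M1, WT M0, WT M1 and WT M2, and neighbours were further apart than the residual SD of 0.32, except WT M1 and WT M2, which were 0.08 apart. That SD rests on how the KO minus WT difference varied over the 3 states, so it does not measure array noise alone.

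After LPS and IFN-γ the Cd5l level differed from M0 by -1.75 in KO and by -2.06 in WT, comparisons that each stayed within a slide. The fit over both genotypes gave -1.91 ± 0.27 (SE, limma adjusted p = 0.0205), a 3.75-fold lower signal. The M1 and M0 arrays overlapped across genotypes, because KO M1 lay above WT M0, so the decrease shows only within a genotype. After IL-4 and IL-13 the level differed from M0 by -1.25 in KO and by -2.15 in WT, with a fitted difference of -1.70 ± 0.27 that did not pass (limma adjusted p = 0.112). The KO decrease was the smaller one in both stimulated states, by 0.31 in M1 and 0.90 in M2, and these differences between responses were not tested. WT M2 and WT M0 lay on different slides and KO M2 and KO M0 on the same one. Slide and genotype therefore cannot be told apart in the 0.90. From M0 to M2, 19% of all genes were at least 2-fold higher in WT against 4.77% in KO, and 8.35% against 4.43% were lower.

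Values of other cell types moved with some of these contrasts. Cd5l is itself known from Kupffer cells and other resident macrophages. Of 11 markers of such cells, 8 were well above background on each array except WT M0, where all 11 were, with Timd4 among the 8 on both M1 arrays and Vsig4 in its place on KO M2, KO M0 and WT M2. Their summed level over the 75th percentile was 169.9 in KO against 156.2 in WT for M1, 67.9 against 57.3 for M2 and 131.3 against 118.4 for M0. The sum was thus higher in KO in each state, the same direction as Cd5l. Bright genes such as Folr2, Slc40a1 and, in M1, Il18bp weigh most in it, and the genes did not move alike. Folr2 and Id3 were higher in KO in each state. Il18bp was lower in KO in M2 (-0.69) and M0 (-1.45), and Spic in M1 (-0.67) and M0 (-0.41). Their median level, which on every array was that of the endothelial cadherin gene Cdh5, ranged between -2.81 and -2.62 in KO and between -3.59 and -3.17 in WT. Clec4f, a defining lectin of Kupffer cells, was not well above background on any KO array nor on WT M1 or WT M2, and read -5.71 on WT M0. Lyve1, a receptor of hyaluronan, was likewise above background on WT M0 only. The part of resident macrophage RNA in the Cd5l difference was not tested. Leaving out WT M0, the array with the highest hepatocyte median, gave a Cd5l KO minus WT value of 2.77 and an M1 minus M0 value of -1.61. KO M1, where 19 of 23 hepatocyte markers were well above background, stayed in that fit. With each array left out in turn, the Cd5l KO minus WT value lay between 2.32 and 2.77. Summed levels of neutrophil and granulocyte genes were between 9.62 and 17.9 in KO and between 20.7 and 86.3 in WT. Those of stromal genes were between 5.24 and 6.56 in KO and between 7.90 and 18.0 in WT. Both sums were lower on every KO array than on any WT array. The granulocyte sum of WT M1 rests largely on Lcn2, which read 3.36 there against -0.74 on WT M0. List medians were lower in KO within each state but overlapped across states. The granulocyte median was -2.23 on KO M0 and -3.39 on WT M1, and the stromal median -2.84 on KO M2 and -3.36 on WT M1. In M1 S100a8, Mpo, Prtn3 and Mmp8 were higher in KO. The summed level of 8 monocyte genes was 72.6 in KO against 185.002 in WT for M1, 0.67 against 2.15 for M2 and 1.35 against 9.06 for M0, lower in KO in each state. Most of the M1 sum was Ly6c2 (6.06 in KO, 7.46 in WT), and the M1 medians were -2.018 in KO and -2.012 in WT. Vcan was higher in KO in M1 (-1.15 against -2.07). The part of these cell types in the Cd5l difference was not tested.

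**Figure D2:**
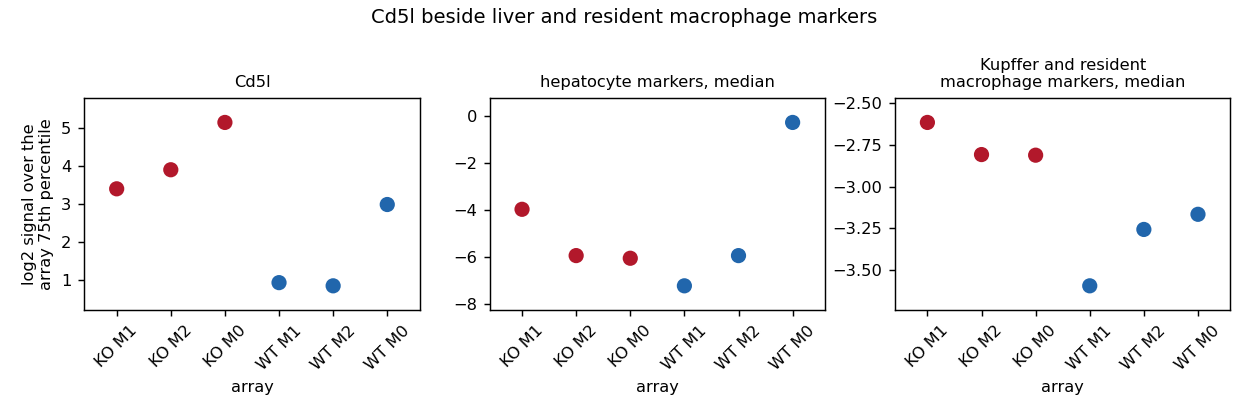
Cd5l level (left), median level of 23 hepatocyte markers (middle) and median level of 11 Kupffer and resident macrophage markers (right) on each array, all as log2 signal over the array's 75th percentile with a separate range per panel. Red points are KO arrays and blue points WT arrays, 1 array each. The hepatocyte median is highest on WT M0 at -0.26, where Cd5l is the highest of the WT arrays. Among the KO arrays Cd5l is highest on M0 at 5.16, where the hepatocyte median is -6.06. It is lowest on KO M1 at 3.40, where that median is -3.97.

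The class A receptors Msr1 and Marco were the 2 genes of the set that rose after LPS and IFN-γ, a call made for 11.6% of all tested genes. Msr1, the receptor of acetylated low-density lipoprotein also called SR-A, had levels of 5.52, 3.06 and 3.22 in KO M1, M2 and M0, against 5.003, 2.72 and 2.60 in WT M1, M2 and M0. Both M1 arrays stood well apart from the other 4, which lay within a narrow band. The M1 minus M0 difference was 2.31 in KO and 2.40 in WT, with a fitted value of 2.35 ± 0.16 (SE, limma adjusted p = 0.00789), or 5.11-fold. In M2 the difference from M0 was -0.16 in KO and 0.12 in WT, and the fitted -0.02 (adjusted p = 0.956) has no stable sign, since normexp background correction gave 0.17 and averaging the 3 probes gave 0.047. The background SD fitted by normexp was 124 on KO M0 and at most 3.56 on the other arrays.

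The 3 Msr1 probes all showed the M1 increase, by 2.31, 2.28 and 1.54 in KO and by 2.40, 2.33 and 1.63 in WT. The genotype difference was less alike among them. The brightest probe was higher in KO by 0.52 in M1, 0.33 in M2 and 0.62 in M0. The second probe gave 0.60, 0.15 and 0.65, and the third gave 0.10, -0.25 and 0.18, so in M2 the probes differed in sign. Msr1 was the highest in KO M1 and the lowest in WT M0, and every step between neighbouring arrays exceeded the residual SD of 0.10. Here too that SD rests on how the genotype difference varied over the states and does not measure array noise alone.

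Marco, a collagen-like receptor for bacteria and particles, had the largest range of the 8 genes over the arrays. Its levels were 7.13, 1.04 and 2.68 in KO M1, M2 and M0, against 6.77, 0.16 and 1.79 in WT M1, M2 and M0. In signal units these are 81456, 1292 and 3853 for KO, against 64379, 615 and 1840 for WT. Stimulation separated the arrays far more than genotype did, with M1 on top and M2 at the bottom in both genotypes. The M1 minus M0 difference was 4.44 in KO and 4.99 in WT, fitted at 4.72 ± 0.22 (SE, limma adjusted p = 0.00681), or 26.3-fold, the 125th highest of 19038 genes. In M2 it was -1.64 in KO and -1.63 in WT, and the fitted -1.64 ± 0.22 did not pass (adjusted p = 0.0910), although the M2 and M0 arrays did not overlap. KO minus WT was 0.35 in M1, 0.89 in M2 and 0.89 in M0, the same direction as Msr1 and below 2-fold in each state.

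**Figure D3:**
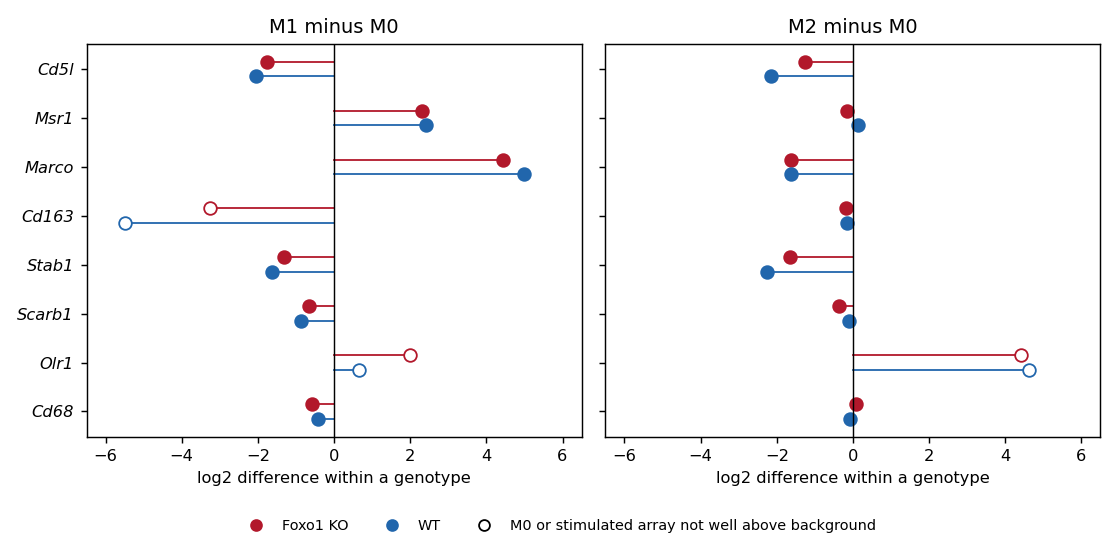
Difference from M0 within KO (red) and within WT (blue) for M1 (left) and M2 (right), in log2 units, 1 array against 1 array, for the 8 genes (rows); open points involve an array not well above background. Marco and Msr1 point to the right in M1 and Cd5l, Cd163 and Stab1 to the left in both genotypes, while in M2 Olr1 reaches 4.43 in KO and 4.63 in WT.

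Cd163 and Stab1, receptors linked with clearance, fell after LPS and IFN-γ, and their KO values lay below the WT values wherever both arrays were well above background. Cd163, which takes up haptoglobin-haemoglobin complexes and carries the same kind of cysteine-rich domains as Cd5l, was a dim gene. Its levels were -8.17, -5.10 and -4.91 in KO M1, M2 and M0, against -8.55, -3.22 and -3.07 in WT M1, M2 and M0. Neither M1 array was well above background, with signals of 2.03 units in KO and 1.56 units in WT, and the other 4 arrays read between 18.2 and 63.3 units. M1 was at least 4.51-fold lower than M0, as a bound that sets dim arrays at the lowest well-measured signal (limma adjusted p = 0.0232 for the fitted difference). Within a genotype the bound was 2.24-fold in KO and 9.08-fold in WT. The fitted -4.37 became -1.38 with the normexp correction (limma adjusted p = 0.125), and the call was lost. With normexp fitted without spots of flagged background, a setting added after seeing the data, the fitted difference was -0.76 (adjusted p = 0.0603). The call was lost there too. Both normexp settings add 50 units to every signal, which by itself shrinks differences between signals this low. M2 differed from M0 by -0.19 in KO and -0.15 in WT, fitted at -0.17 ± 0.68 (adjusted p = 0.897), which turned to 0.41 without KO M2 and to 0.37 without WT M0.

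KO cells had lower Cd163 than WT cells, with differences of -1.89 in M2 and -1.84 in M0, while both M1 arrays were below background and give no difference. At these low signals both values changed with the normexp settings, whose added 50 units by themselves shrink such differences. The part of background handling in these changes was not tested. The M2 value was -0.76 with the normexp correction and -0.77 with normexp fitted without flagged spots, so below 2-fold. The M0 value was -0.76 without flagged spots and became 0.69 with the normexp correction. The fitted background SD of that correction was 124 on KO M0 and at most 3.56 on the other arrays. Only the M2 pair shared a slide.

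Stab1, also called stabilin-1 or CLEVER-1, a receptor of resident macrophages and sinusoidal endothelium that takes up acidic secreted proteins, had levels of 3.00, 2.67 and 4.32 in KO M1, M2 and M0, against 3.53, 2.89 and 5.16 in WT M1, M2 and M0. Both M0 arrays lay above all 4 stimulated arrays. The M1 minus M0 difference was -1.32 in KO and -1.63 in WT, fitted at -1.47 ± 0.22 (SE, limma adjusted p = 0.0210). In M2 it was -1.65 in KO and -2.27 in WT, and the fitted -1.96 ± 0.22 missed the threshold (adjusted p = 0.0743) despite being the larger value. The second Stab1 probe gave smaller M1 values of -0.37 in KO and -0.44 in WT, and M2 values of -1.16 in KO and -1.35 in WT. KO minus WT was -0.53 in M1, -0.22 in M2 and -0.84 in M0, and the second probe gave -0.29, -0.16 and -0.35 in the same states. Stab1 is also expressed in sinusoidal endothelium, and 9 of 9 markers of that cell type were above background on all arrays. Their summed level was 12.02 in KO against 9.85 in WT for M1, 7.11 against 9.29 for M2 and 4.91 against 6.11 for M0. The sum was thus lower in KO in M2 and M0, the same direction as Stab1, and higher in M1. Dnase1l3 weighed most in the M1 sums (2.68 in KO, 2.02 in WT). The median KO minus WT difference of the markers was 0.28 in M1, -0.40 in M2 and 0.02 in M0. The part of these cells was not tested.

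Olr1, the lectin-like receptor of oxidised low-density lipoprotein known as LOX-1, had the largest increase after IL-4 and IL-13 among the 8 genes. Its levels were -4.26, -1.84 and -6.26 in KO M1, M2 and M0, against -5.90, -1.92 and -6.55 in WT M1, M2 and M0. Signals were 175 units in KO M2 and 146 units in WT M2, and neither M0 array was well above background, so that the M2 arrays stood clear of all others. M2 was at least 21.2-fold higher than M0 (limma adjusted p = 0.0713 for the fitted 4.53 ± 0.45), with bounds of 21.5-fold in KO and 20.9-fold in WT. The difference did not pass, and with the normexp correction it shrank to 0.90 (adjusted p = 0.491), with 0.11 in KO and 1.69 in WT. With normexp fitted without spots of flagged background it was 1.75 (adjusted p = 0.00613), with 1.80 in KO and 1.70 in WT. The fitted background SD on KO M0 was 124 with the normexp correction and 0.65 without flagged spots. The 50 units that both normexp settings add to every signal by themselves shrink differences from signals as low as those of M0. In M1 Olr1 was at least 2.31-fold higher (adjusted p = 0.112), with bounds of 4.01-fold in KO and 1.33-fold in WT. The fitted M1 difference turned to -0.48 with the normexp correction, a value that also takes in KO M0. KO minus WT was 1.64 in M1 and 0.08 in M2, and in M0 both arrays were below background. The M1 value was 0.16 with the normexp correction and 0.31 without flagged spots. Here too the added 50 units by themselves shrink the difference.

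Scarb1, the class B receptor that takes up cholesteryl ester from high-density lipoprotein, varied little. Its levels were 1.34, 1.63 and 2.00 in KO M1, M2 and M0, against 1.25, 2.02 and 2.13 in WT M1, M2 and M0. The M1 arrays were the lowest in both genotypes, and the fitted M1 difference of -0.77 ± 0.19 lay just outside the threshold (limma adjusted p = 0.0598). The M2 difference of -0.24 ± 0.19 did not pass (adjusted p = 0.509). KO minus WT was 0.09 in M1, -0.39 in M2 and -0.13 in M0. Only the M2 value was larger than the residual SD of 0.17, which itself rests on how these values vary and so sets no limit of noise. The M1 value turned to -0.23 with median centring.

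Cd68, a glycoprotein of late endosomes and lysosomes that serves as a general macrophage marker, was the steadiest gene of the set, with a range of 0.75 over the arrays. Its levels were 6.40, 7.06 and 6.98 in KO M1, M2 and M0, against 6.32, 6.65 and 6.73 in WT M1, M2 and M0. The M1 arrays were the lowest of each genotype. The fitted M1 difference was -0.50 ± 0.17 (limma adjusted p = 0.110), and the M2 difference of 0.0027 ± 0.17 (adjusted p = 0.995) changed sign with quantile normalization (-0.19), with median centring (-0.094), with the authors' deposited table (-0.15) and with normexp fitted without flagged spots (-0.055). KO minus WT was 0.08 in M1, 0.41 in M2 and 0.24 in M0, and the M1 value turned to -0.24 with median centring and the M0 value to -0.21 with normexp. That M0 value takes in KO M0, where the background SD fitted by normexp was 124. Of 8 other lysosomal genes that include Lamp1, Ctsd and Gpnmb, none passed in M1 or in M2, with medians of 0.03 and 0.01 against 0.03 and 0.08 over all genes.

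**Figure D4:**
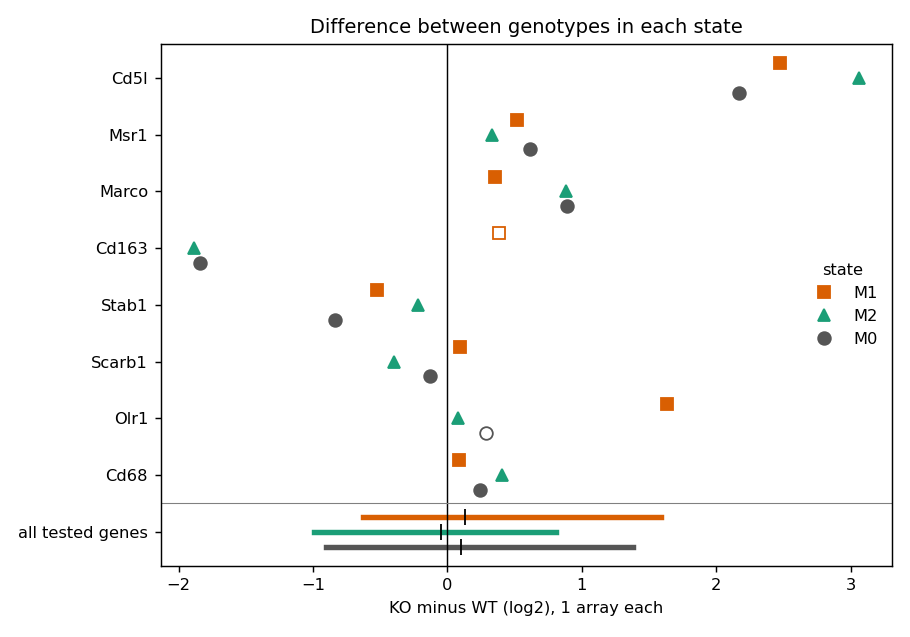
KO minus WT difference in log2 units for the 8 genes (rows) in M1 (squares), M2 (triangles) and M0 (circles), 1 KO array against 1 WT array; open symbols have an array not well above background. The bottom row shows the 5th to 95th percentile of all 19038 tested genes with the median as a tick. Only Cd5l, by whose difference the set was chosen, exceeds the 95th percentile in all 3 states.

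Counted together, 2 of the 8 genes rose (Msr1 and Marco) and 3 fell (Cd5l, Cd163 and Stab1) in M1, against 11.6% of all tested genes called higher and 14% called lower (25.6% in all). The M1 and M0 arrays did not overlap for 7 of the 8, a pattern that 63.1% of all genes share. Their median M1 minus M0 difference was -0.63, against 0.03 over all genes. The M2 and M0 arrays did not overlap for 3 of the 8 (Marco, Stab1 and Olr1), as for 53.5% of all genes. In M2 none of the 8 passed in a contrast that called 16 genes in all (0.084%), and 4 of the 8 had an unadjusted p under 0.05, as did 19.1% of all genes. The median M2 difference was -0.20, against 0.08 over all genes. Counted by size alone, Cd5l, Marco and Stab1 were at least 2-fold lower in M2 than in M0 in both genotypes, as were 3.23% of all genes, and Olr1 was at least 2-fold higher in both, as were 3.29%. Between KO and WT 0 of 19038 genes passed (0%) in the limma fit, with 2157 at an unadjusted p under 0.05 (11.3%). Of the 8 genes, 5 were higher in KO in all 3 states (Cd5l, Msr1, Marco, Olr1, though both its M0 arrays were below background, and Cd68, which turned lower in M1 with quantile normalization, median centring and the authors' deposited table) and 1 was lower in all 3 (Stab1), where 22% and 15.1% of all genes were. The third Msr1 probe was lower in KO in M2 (-0.25). The median KO minus WT difference of all genes was 0.13 in M1, -0.05 in M2 and 0.10 in M0, and Cd68 in M1 (0.08) lay below that median. Differences of at least 2-fold were seen in KO for Cd5l and Olr1 in M1, both higher (13.9% of all genes were), for Cd5l (higher, 3.36%) and Cd163 (lower, 4.91%) in M2, and for Cd5l (higher, 9.92%) and Cd163 (lower, 4.25%) in M0. With either normexp setting the values of Olr1 and Cd163 among these were below 2-fold. The 50 units these settings add to every signal by themselves shrink differences of dim genes. Leaving out any 1 of the 4 M1 and M0 arrays left 0 genes called in M1 over the whole array, these 5 included, so each of these calls needs all 4 arrays.

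Among 20 other scavenger receptors, 18 were tested, of which 2 rose and 6 fell in M1 and none passed in M2. Of all tested genes, 11.6% rose and 14% fell in M1 and 0.084% passed in M2, and the list was not tested against these shares. Mrc1, the mannose receptor, had the largest M1 difference at -5.49 ± 0.33 (limma adjusted p = 0.00709), with -4.95 in KO and -6.03 in WT. Colec12, a scavenger receptor with a collectin domain, fell by 2.90 on the log2 scale (adjusted p = 0.0142), and Stab2, the hyaluronan receptor related to Stab1, fell by 2.68 (adjusted p = 0.0298). In M2, where no gene of the list passed, large values were those of Scara5 (1.99, adjusted p = 0.259), Mrc1 (1.28, adjusted p = 0.184) and Clec7a (1.17, adjusted p = 0.115). The list's median was -0.58 in M1 and 0.23 in M2. None of the 18 was at least 2-fold apart between KO and WT in the same direction in all 3 states, where 0.42% of all genes were higher and 0.268% lower.

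**Figure D5:**
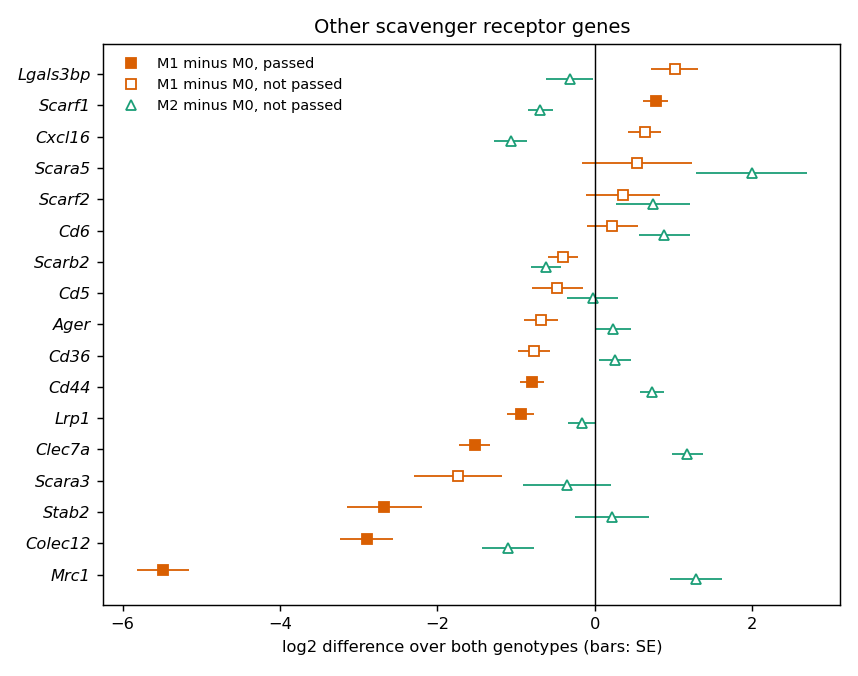
Fitted differences from M0 over both genotypes, in log2 units with SE bars, for 17 other scavenger receptor genes (rows, ordered by the M1 value), M1 as squares and M2 as triangles; filled symbols passed an adjusted p of 0.05. Mrc1 lies farthest left in M1 at -5.49, and Scarf1 passes on the right.

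Genes that handle the cargo of these receptors were described in the same way. Each M1 count below stands beside 11.6% of all tested genes called higher and 14% called lower, and none was tested against these shares. Of 16 genes of cholesterol uptake, storage and efflux, 7 fell and none rose in M1, with a median of -0.90. Lpl, lipoprotein lipase, fell by 2.36 (limma adjusted p = 0.0297), Vldlr, a lipoprotein receptor, fell by 1.88 (adjusted p = 0.0201), and Abca1, the cholesterol exporter, fell by 1.504 (adjusted p = 0.0151), while Apoc2, an activator of Lpl, had -1.84 (adjusted p = 0.0518). Of 20 genes of apoptotic cell uptake, 2 rose and 6 fell in M1. The bridging ligand gene Gas6 fell by 3.66 (adjusted p = 0.0127) and its relative Pros1 fell by 3.05 (adjusted p = 0.00681), the integrin gene Itgb5 fell by 2.97 (adjusted p = 0.00977), and the integrin gene Itgb3 rose by 2.67 (adjusted p = 0.0441). Of 14 genes of haemoglobin and haem handling, into which Cd163 feeds, 3 rose and 3 fell in M1. The iron exporter gene Slc40a1 fell by 3.102 (adjusted p = 0.00709) and the transferrin receptor gene Tfrc fell by 2.11 (adjusted p = 0.00976), while the haem oxygenase gene Hmox1 rose by 1.80 (adjusted p = 0.0130) and Spic, a transcription factor of red pulp macrophages, by 1.71 (adjusted p = 0.0243).

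None of these 3 lists had a gene that passed in M2, nor 1 that differed at least 2-fold between KO and WT in all 3 states. Among 5 partners of Cd5l, 2 fell in M1, as did 14% of all tested genes. The fatty acid synthase gene Fasn fell by 1.58 (limma adjusted p = 0.0114), and Igj, the joining chain of IgM, fell by 1.95 (adjusted p = 0.0406). Ighm, the IgM heavy chain, had -3.30 (adjusted p = 0.0533) and Cd36, a class B receptor known to take up Cd5l, -0.78 (adjusted p = 0.0665). Cd36 was higher in KO by 0.20 in M1, 0.29 in M2 and 0.73 in M0. Among 20 transcription factors known to act upstream of Cd5l or scavenger receptors, 7 rose and 5 fell in M1, beside 11.6% and 14% of all tested genes. Klf4, a zinc finger factor, rose by 3.70 (adjusted p = 0.0194), and Cebpb, a factor of acute inflammatory genes, rose by 1.32 (adjusted p = 0.0137). Pparg, the lipid-sensing receptor that acts on Cd36, fell by 2.91 (adjusted p = 0.00709), and Tfec, a relative of Mitf, fell by 1.90 (adjusted p = 0.0105). Nr1h3, which encodes LXR alpha and is named although the naming rule did not pick it, had KO minus WT values of -0.47 in M1, -0.13 in M2 and 0.18 in M0. It was among the 7 that rose in M1, by 1.10 (limma adjusted p = 0.0388). Of these 20 factors only Foxo1 itself was reduced 2-fold or more by KO in every state.

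The 8 genes did not follow 1 pattern over the 6 arrays. Msr1 and Marco had a Pearson r of 0.97 with each other, and Msr1 had -0.96 with Cd163, over 6 arrays that hold 3 states in both genotypes. Cd5l stayed between -0.21 and 0.66 with the other 7, its highest value being with Cd68. Over 6629 genes that were measured above background throughout and had an SD of at least 0.5, those most like Cd5l were Hsd17b1, an oestrogen-converting dehydrogenase (r = 0.99), the histone gene Hist3h2ba (r = 0.97) and the olfactory receptor gene Olfr430 (r = 0.96), with 2 transcripts that carry no gene symbol, and 9 genes exceeded an r of 0.95. For Marco 597 genes and for Msr1 652 genes exceeded it, led by Pdxp, Clcn7 and BC158068 for Marco and by Usp15, Tmem248 and Cyhr1 for Msr1. Stab1 was followed most closely by Epn2, a clathrin adaptor (r = 0.99), and 29 genes exceeded 0.95 with it. With 6 arrays in 3 pairs such values describe the shape of the profile only.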

How the data were processed

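RNA of 6 macrophage samples was hybridised to 1-colour Agilent 4x44K arrays. The authors deposited, per the file headers, spot intensity values from Agilent Feature Extraction 10.7.3.1, in which the processed signal has had background and spatial trend removed. The authors also deposited a log2 table of the same arrays, whose scale was found by correlation with each array's own log2 signal (r at least 0.99886) and whose centring is unknown. It served as an alternative. Its 6 column medians lay between 5.39 and 5.41.

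Control and outlier spots (79 to 164 of 43379 per array) were left out, spots of a probe were averaged, 37 of 41174 probes with a missing value were dropped, and log2 signals were set against each array's 75th percentile. The brightest probe stood for a gene. An additive limma model (limma 3.58.1, R 4.3.3) with state and genotype was fitted over the 6 arrays (2 residual df, prior df 1.88), with Benjamini-Hochberg adjustment over 19038 genes and a threshold of 0.05. Its residual holds array noise together with any genotype effect that changes with state. The labels do not state whether separate animals gave the RNA, so p-values measure only the spread between these samples, which may be technical. The number of arrays limits the precision. Within a state or genotype, differences are 1 array against 1 array, with no replicate check.

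For bounds ("at least N-fold"), a dim array took its lowest signal called well above background or the probe's own signal, whichever was higher. The fit was tested on simulated data. Probe positions are on mm9, and promoter sequences are RefSeq's on GRCm38.p6, used with pandas 2.3.3 in Python 3.11.15. The 8 genes and all gene lists were chosen with earlier results of these data known. From each list at most 4 genes were named, those with the largest absolute difference among genes measured above background on every array compared. By Pearson r, 5 genes were ranked for Cd5l and 3 for each other member. Alternatives covered background correction, scaling, filters, probe averaging, slide, intensity trend and leaving out each array. Both normexp settings added 50 units to every signal, which by itself shrinks differences of dim genes. Protein comparisons were not made, and 1 gene of a list is not reported here by name.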

Additional observations from a re-analysis of the deposited data

Results flagged for a closer look

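Of the 8 genes, 3 had single-array differences of opposite sign between groups, and none of these differences between groups was tested. The Msr1 difference between M2 and M0 was -0.16 in KO and 0.12 in WT. The Cd68 difference between M2 and M0 was 0.083 in KO and -0.078 in WT. The Scarb1 difference between KO and WT was 0.093 in M1, -0.39 in M2 and -0.13 in M0. All are below 2-fold, and each compares 1 array with 1 array.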

How the results depend on the processing

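No paired analysis was possible because each genotype and state has 1 array and the labels give no replicate numbers. The Cd5l difference between KO and WT stayed between 2.32 and 3.06, with 3.06 when the slide was a block and only the M2 pair contributed. Genes called between KO and WT numbered 32 with an intensity trend and 9 with normexp fitted without spots of flagged background, an alternative chosen after seeing the data, and each count took in 1 of the 8 genes, the one whose difference chose the set, so nothing is drawn from it. The planned normexp correction lost calls in M1 (1287 genes against 4872 in the main fit, 2 of the 8, Cd5l -1.68 with limma adjusted p = 0.0751). Quantile normalization and the authors' deposited table each called all 8, among 4811 and 4821 of 19038 genes. Leaving out 1 array gave 0 to 5 of the 8 genes called in M1, 0 to 5448 genes in all, and Cd5l values between -2.21 and -1.61. In M2 the calls numbered 0 with normexp, with no filter, with the slide block and with any array left out, against 868 (4 of the 8) with normexp without flagged spots, 147 (1) with quantile normalization, 478 (2) with median centring, 153 (1) with the authors' table, 273 (1) with a filter for all arrays and 1083 (4) with an intensity trend. Cd5l passed in M2 with the trend (-1.70, adjusted p = 0.0141) and with normexp without flagged spots (-1.66, adjusted p = 0.01999). Of M1 calls 45.2% were higher, against 54.2% with normexp and 58.8% with median centring, which moved the median of all genes to -0.33 and 0.26.

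Genes at least 2-fold apart between KO and WT numbered 307 in M1, 433 in M2 and 6672 in M0 with normexp, and 339, 433 and 418 without flagged spots. From M0 they numbered 8835 in KO M1, 7077 in KO M2, 2550 in WT M1 and 1512 in WT M2 with normexp, and 2715, 681, 2658 and 1519 without flagged spots. The KO M0 values with normexp carry the failed background fit. Signs turned for these differences. Olr1 M1 minus M0 was -0.48 overall and -1.20 in KO with normexp. Msr1 M2 minus M0 was 0.17 with normexp, 0.047 with probe means and, with 1 array left out, between -0.14 and 0.10, above 0 without KO M2 and without KO M0. Cd68 M2 minus M0 was -0.19 with quantile normalization, -0.094 with median centring, -0.15 with the authors' table, -0.055 with normexp without flagged spots and between -0.12 and 0.12 with 1 array left out, below 0 without KO M2. Cd163 M2 minus M0 ranged from -0.75 to 0.41 with 1 array left out, above 0 without KO M2 and without WT M0 (0.37), and its KO minus WT value in M0 was 0.69 with normexp. The causes of the other changes were not tested.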
